A study of Homo sapiens with 8 samples.

Results

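The folding enzymes and co-chaperones of the endoplasmic reticulum (ER) were examined as a group of 41 genes, listed by their known function and found on the array through the probe sets that the platform annotation maps to them. Of these, 35 were measured, meaning that a probe set naming that gene alone reached a log2 value of 6 on at least 1 of the 8 arrays, out of 8429 genes measured in this way. PDIA5 and TXNDC5 were read only by probe sets shared with other symbols and were not used. TXNDC11, ERO1B, FKBP7 and CRELD1 stayed under the limit, with highest values of 5.78, 5.68, 5.70 and 2.85. Of the 35 measured genes, 31 reached the limit on every array. TMX4, FKBP11, SDF2 and UGGT2 did not, and FKBP11 reached it only in cells given 2DG with compound C, so its difference there is partly set by the limit.

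All samples were HT1080 cells, a human fibrosarcoma line, cultured for 18 h under 1 of 8 conditions. The conditions were untreated control, 10 µM compound C (CC), 10 µM versipelostatin (VST) and 100 µM phenformin (Phen), each without and with 10 mM 2-deoxy-D-glucose (2DG), and the compound went on just before 2DG. 2DG is a glucose analog that blocks glycolysis and disturbs protein glycosylation, compound C is an AMPK inhibitor, phenformin is a biguanide, and versipelostatin is a microbial product studied as an inhibitor of the unfolded protein response. Each condition had 1 array, so no difference below has a replicate check or a test, and all differences are given as values. Of 7 markers of mesenchymal cells 6 reached the limit, S100A4 being the exception with values from 4.11 to 5.09, whereas none of 8 markers of epithelial, blood, endothelial, liver or glial cells did, the highest value being 4.41. In bulk RNA, fewer cells and less RNA per cell cannot be told apart.

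A measured fact that touches every comparison is the level of the poly-A control RNAs on the array. Their 24 probe sets lay above the control array by a median of 0.35 in 2DG, 1.22 in 2DG+CC, 0.85 in 2DG+VST and 0.67 in 2DG+Phen, and by 0.10, 0.05 and 0.28 with the compounds alone. Scaling on these controls moved the median of all genes by more than 0.1 in most comparisons, to −0.34 for 2DG against control and −1.10 for 2DG+CC against 2DG. Their part in the results was not tested, and a difference from control that is above 0 but smaller than the offset of its array turns sign under this scaling. On the 18 hybridization control probe sets the medians above control were 0.21 in 2DG, 0.75 in 2DG+CC, 0.53 in 2DG+VST and 0.58 in 2DG+Phen. They were 0.17, 0.05 and 0.14 with the compounds alone, and no scaling on these probe sets was done.

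Proteins that enter the ER are folded by a set of helpers with distinct roles. The HSP70 chaperone GRP78 works with J-domain proteins, which deliver substrates and stimulate its ATPase, and with nucleotide exchange factors, which reset it. Calnexin and calreticulin hold glycoproteins through their sugars, protein disulfide isomerases make and rearrange disulfide bonds with oxidizing power from ERO1 enzymes, and prolyl isomerases turn the peptide bonds before proline. When unfolded protein builds up, ATF6 and XBP1 raise the transcription of many of these genes through ER stress response elements in their promoters.

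RefSeq promoters (GRCh38.p14, 250 bases before to 50 after each start) were available for 37 of the 41 genes, and 7 of them held an ER stress response element on one of the strands. The element ERSE, searched as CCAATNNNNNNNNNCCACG, was in 5 of the 37 genes (13.5%) against 0.0916% of the 27305 genes with a promoter, and ERSE-II, searched as ATTGGNCCACG, was in 2 of the 37 (5.41%) against 0.0696%. The choice of genes did not use the promoter letters. Many of these genes are known to be raised through such elements, however, so these shares are not independent of the choice and are a description. Each site is printed 5′ to 3′ on the strand of its gene, with the element in capitals. The element reads as its reverse complement in ERO1B, CALR, CRELD2, HYOU1 and SDF2L1.
PDIA6 (chr2:10812838-10812886, minus strand): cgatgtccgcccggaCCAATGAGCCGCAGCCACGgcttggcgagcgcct
CANX (chr5:179698773-179698801, plus strand): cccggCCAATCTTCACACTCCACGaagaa
CALR (chr19:12938369-12938417, plus strand): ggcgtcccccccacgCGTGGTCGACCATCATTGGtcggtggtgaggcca
CRELD2 (chr22:49918539-49918587, plus strand): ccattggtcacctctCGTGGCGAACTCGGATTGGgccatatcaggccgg
ERO1B (chr1:236282168-236282208, minus strand): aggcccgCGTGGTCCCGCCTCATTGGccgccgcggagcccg
HYOU1, upstream site (chr11:119057365-119057405, minus strand): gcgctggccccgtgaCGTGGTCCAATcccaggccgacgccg
HYOU1, site nearer the start (chr11:119057259-119057299, minus strand): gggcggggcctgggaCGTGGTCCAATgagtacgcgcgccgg
SDF2L1 (chr22:21642099-21642139, plus strand): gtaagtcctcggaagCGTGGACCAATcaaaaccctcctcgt

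The first base of the element lay 86 bases before the start in PDIA6, 80 in CRELD2, 225 in CALR, 243 in ERO1B and 188 in SDF2L1. In HYOU1 the elements began 185 and 79 bases before it. In CANX the single site lay 151 or 189 bases before the start, depending on which annotated start is taken. The shorter letters were common everywhere and overlap these elements: CCACG was in 78.4% of the 37 genes and 42.1% of all genes with a promoter, CCAAT in 64.9% and 39.7%, and ACGT in 64.9% and 37.8%. None of 21 relatives of these genes that act outside the ER held ERSE or ERSE-II, and of 10 other genes of the pathway, HSPA5, HSP90B1 and XBP1 held ERSE. A match is a description of the letters only.

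The first comparison asks how broadly these genes differ when glucose use is blocked. In 2DG against control, 15 of the 35 genes (42.9%) were at least 2-fold higher, where 3.06% of all measured genes were, and none was at least 2-fold lower, where 1.90% of all genes were. The median log2 difference of the 35 genes was 0.83, against 0.01 over all genes. It was 0.48 after scaling on the poly-A controls, which put the median of all genes at −0.34. The count of genes at least 2-fold higher was 11 under that scaling, beside 1.36% of all genes. With the median over probe sets the count was 18, beside 3.11% of all genes. The 24 measured relatives outside the ER, which are J-domain, FKBP, cyclophilin and thioredoxin-like proteins and the HSP70 exchange factors HSPA4, HSPH1, BAG1 and HSPBP1, had a median of −0.13 and none at least 2-fold away from control.

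**Figure D1:**
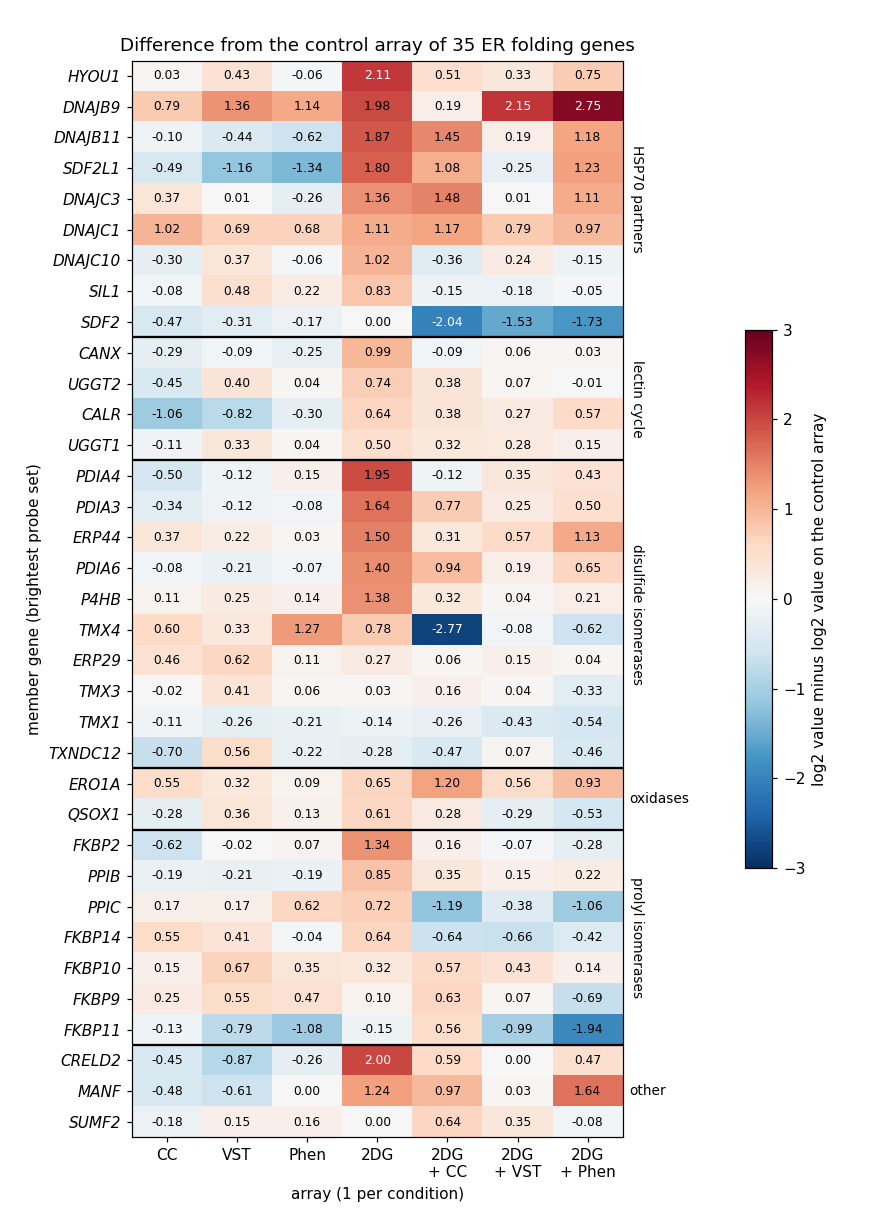
Log2 value on each array minus the log2 value on the control array (colour and printed number) for the 35 measured ER folding genes, grouped by role. 1 array per condition, columns are the 7 treated arrays; the 2DG column is the one most often darkest red, from −0.28 for TXNDC12 to 2.11 for HYOU1.

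By role, 7 of 9 partners of HSP70 chaperones passed the 2-fold threshold in 2DG (median 1.36), as were 5 of 10 disulfide isomerases and thioredoxin-domain proteins (median 1.08), 2 of 3 other folding factors (median 1.24) and 1 of 7 prolyl isomerases (median 0.64). On their brightest probe sets, none of the 4 genes of the lectin cycle (median 0.69) or the 2 sulfhydryl oxidases (median 0.63) passed it. The map of differences from control shows these blocks side by side. Just inside the 2-fold threshold was DNAJC10 at 1.02, and just outside it was CANX at 0.99. The other expressed CANX probe sets gave 1.40, 1.46 and 2.06, and UGGT1 and UGGT2 reached 1.43 and 1.02 on a dimmer probe set. The lectin cycle thus falls outside the threshold only as read from the brightest probe sets.

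HYOU1 encodes a large HSP70 relative that serves as a nucleotide exchange factor for GRP78. Its log2 values were 7.53 on the control array, 7.56 in CC, 7.96 in VST, 7.47 in Phen, 9.64 in 2DG, 8.04 in 2DG+CC, 7.86 in 2DG+VST and 8.28 in 2DG+Phen. The 2DG array stood alone, and the arrays with a compound in 2DG lay 0.51, 0.33 and 0.75 above control, which turns to −0.71, −0.51 and 0.08 under poly-A scaling. SIL1, the other exchange factor, read 6.43, 6.35, 6.91, 6.66, 7.26, 6.28, 6.25 and 6.38 in the same order of conditions, which is kept in all that follows. It was 0.83 higher in 2DG than in control, under the threshold, and with each compound in 2DG it lay below the control value.

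The J-domain proteins did not share 1 pattern. DNAJB9 (ERdj4), which also restrains the sensor IRE1, read 6.45, 7.25, 7.81, 7.60, 8.43, 6.64, 8.60 and 9.20. On its brightest probe set it was above control on all 7 treated arrays and highest of all in 2DG+Phen. In 2DG+CC it lay above control by only 0.19, which turns to −1.03 under poly-A scaling. On its dimmest probe set 2DG+CC lay below control, at 3.81 beside 3.88. The brightest differed from 2DG alone by −1.79 with CC, 0.77 with Phen and 0.17 with VST, the last turning to −0.33 under poly-A scaling.

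DNAJB11 (ERdj3), a co-chaperone that binds unfolded substrates directly, read 9.65, 9.55, 9.21, 9.03, 11.53, 11.10, 9.85 and 10.83. Against 2DG it gave −1.68 with VST, −0.42 with CC and −0.69 with Phen. Among the arrays with a compound in 2DG, the value nearest control was that in 2DG+VST, 0.19 above it. Under poly-A scaling the nearest among them was that in 2DG+CC, at 0.23 against −0.65 with VST. DNAJC3 (p58IPK), an inhibitor of eIF2α kinases that also acts inside the ER, read 8.50, 8.87, 8.51, 8.24, 9.86, 9.98, 8.51 and 9.61. Its value in 2DG+VST lay 0.01 from control, or −0.83 under poly-A scaling, and those in 2DG+CC and 2DG+Phen lay near 2DG alone. On its 3 dimmer probe sets 2DG+VST lay 0.51, 0.76 and 1.56 above control. The difference of 0.12 with CC on the brightest turns to −0.75 under poly-A scaling.

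DNAJC10 (ERdj5), a reductase that opens disulfides before degradation, read 8.55, 8.25, 8.92, 8.49, 9.57, 8.19, 8.79 and 8.40. It was high on the 2DG array alone, and in 2DG it was lower with CC by a difference of −1.38, with Phen of −1.18 and with VST of −0.79. DNAJC1, a membrane J-domain protein, read 8.66, 9.67, 9.35, 9.34, 9.77, 9.83, 9.45 and 9.63. Here control was the low array and all 7 treated arrays lay between 9.34 and 9.83, the compounds alone included, although 2DG+CC and 2DG+VST come to −0.05 from control under poly-A scaling.

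SDF2L1 and SDF2 are related proteins, of which SDF2L1 forms a complex with DNAJB11. SDF2L1 read 7.74, 7.25, 6.57, 6.40, 9.54, 8.82, 7.49 and 8.97. It was lower than control with VST alone (−1.16) and Phen alone (−1.34), and in 2DG it was at 7.49 with VST against 8.82 with CC and 8.97 with Phen. SDF2 read 7.30, 6.82, 6.99, 7.13, 7.30, 5.26, 5.77 and 5.56. This pair separated: SDF2 had the same value in 2DG as in control and was below both with every compound in 2DG, with differences of −2.04, −1.53 and −1.74 from 2DG.

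CALR, the soluble lectin chaperone calreticulin, read 9.42, 8.36, 8.60, 9.12, 10.06, 9.79, 9.68 and 9.99. It was lowest with CC alone (−1.06 against control) and with VST alone (−0.82), and the 4 arrays with 2DG lay between 9.68 and 10.06. The other 3 genes of the lectin cycle are CANX, its membrane-bound relative calnexin, and UGGT1 and UGGT2, which put a glucose back on glycoproteins that are not yet folded. They were highest in 2DG and lowest in CC, with ranges of 11.11 to 12.39, 8.12 to 8.72 and 5.99 to 7.18 on their brightest probe sets. The dimmer UGGT2 probe set was lowest in control, at 5.26, and highest in VST, at 6.98, and gave 1.33 in CC against control where the brighter gave −0.45.

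Among the disulfide isomerases, PDIA3, PDIA4, PDIA6, P4HB and ERP44 passed the threshold in 2DG. PDIA4 (ERp72) read 9.06, 8.56, 8.94, 9.21, 11.01, 8.95, 9.41 and 9.49. PDIA3 (ERp57), the partner of calnexin and calreticulin, read 10.64, 10.30, 10.52, 10.56, 12.27, 11.41, 10.89 and 11.14. In both, the 2DG array was highest, but in 2DG+CC PDIA4 differed from control by −0.12 and PDIA3 by 0.77, the latter turning to −0.45 under poly-A scaling.

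PDIA6, which can act on IRE1 and PERK, read 10.35, 10.27, 10.14, 10.28, 11.75, 11.29, 10.54 and 11.01. P4HB, the founding member of the family and a subunit of collagen prolyl hydroxylase, read 10.69, 10.79, 10.93, 10.83, 12.06, 11.01, 10.73 and 10.90. On the brightest probe sets P4HB was at least 2-fold lower than 2DG with all 3 compounds, by −1.06, −1.33 and −1.17. There PDIA6 was so with VST alone among them, by −1.21. ERP44, which retrieves ERO1 and immature secretory proteins from the Golgi, read 7.98, 8.35, 8.20, 8.00, 9.48, 8.29, 8.55 and 9.11. Of the compounds in 2DG, CC gave the lowest value and Phen the highest, −1.19 and −0.37 from 2DG.

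None of the other measured isomerases and thioredoxin-domain proteins passed the threshold in 2DG. TXNDC12 (ERp18) read 10.17, 9.47, 10.73, 9.96, 9.90, 9.71, 10.25 and 9.71, lowest with CC alone and highest with VST alone. TMX4, a membrane thioredoxin-like protein, read 7.05, 7.65, 7.38, 8.32, 7.83, 4.28, 6.97 and 6.43. The 4.28 in 2DG+CC was far below the 7 other arrays, of which the next lowest was 6.43, and gave −3.55 against 2DG, while the second TMX4 probe set gave −1.67. ERP29, TMX1 and TMX3 stayed within 10.75 to 11.37, 9.39 to 9.92 and 7.68 to 8.42 and were never 2-fold from their reference array.

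ERO1A, the oxidase that recharges P4HB, read 9.0, 9.55, 9.32, 9.10, 9.66, 10.20, 9.56 and 9.93. The 2DG+CC array was highest, 0.55 above 2DG, which turns to −0.32 under poly-A scaling. On another ERO1A probe set control was highest, at 9.60 beside 9.47 in 2DG+CC. There 2DG+Phen lay −1.08 from 2DG, where the probe set used gave 0.28. The dimmest ERO1A probe set was highest in 2DG+CC, at 7.75, and gave −0.63 in 2DG+Phen against 2DG. QSOX1, an oxidase that also works in the Golgi and outside the cell, ranged from 7.49 in 2DG+Phen to 8.63 in 2DG. ERO1B, under the limit, read 3.89 in control and 5.68 in 2DG on its brighter probe set and between 3.48 and 4.34 on all other arrays.

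Of the prolyl isomerases, FKBP2 alone passed the threshold in 2DG. It read 8.80, 8.19, 8.78, 8.88, 10.14, 8.97, 8.73 and 8.52, and with CC, VST and Phen in 2DG it lay 0.16, −0.07 and −0.28 from control, of which the 0.16 turns to −1.06 under poly-A scaling. PPIC (cyclophilin C) read 8.67, 8.84, 8.84, 9.29, 9.39, 7.47, 8.29 and 7.60. Its lowest arrays were those with a compound in 2DG, with differences from control of −1.19 with CC, −0.38 with VST and −1.06 with Phen.

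FKBP14, an isomerase that acts on collagen, read 7.22, 7.77, 7.63, 7.18, 7.86, 6.58, 6.56 and 6.80. It too was lower than control in each of the 3 arrays with a compound in 2DG and lower than 2DG by −1.28, −1.30 and −1.06. FKBP11 read 5.96, 5.83, 5.17, 4.88, 5.81, 6.52, 4.97 and 4.02, with Phen low in both media and 2DG+CC high, although its 0.71 in 2DG+CC against 2DG turns to −0.16 under poly-A scaling. FKBP10, a collagen chaperone, read 6.87, 7.03, 7.55, 7.23, 7.19, 7.44, 7.30 and 7.02, a span under 2-fold. PPIB (cyclophilin B), a partner of calreticulin and of collagen modification, ranged from 11.62 in VST to 12.68 in 2DG, and FKBP9 from 6.82 in 2DG+Phen to 8.14 in 2DG+CC.

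CRELD2, a secreted disulfide isomerase-like factor, read 8.23, 7.78, 7.36, 7.97, 10.23, 8.82, 8.23 and 8.70. MANF, a GRP78-binding factor that is also secreted, read 9.76, 9.28, 9.15, 9.77, 11.01, 10.73, 9.80 and 11.40. In 2DG+VST their differences from control were −0.00 and 0.03, or −0.85 and −0.81 under poly-A scaling, and MANF was highest in 2DG+Phen, 0.40 over 2DG, or 0.08 under poly-A scaling. SUMF2, a paralog of the sulfatase-modifying enzyme, read 8.13, 7.95, 8.28, 8.29, 8.13, 8.77, 8.48 and 8.05. Its 0.64 in 2DG+CC against 2DG turns to −0.23 under poly-A scaling.

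The element-bearing promoters can be set beside these values. Of the 6 measured genes with ERSE or ERSE-II, 4 were at least 2-fold higher in 2DG, with a median of 1.60 and a range from 0.64 to 2.11. Of the 25 measured genes whose promoter held neither, 9 were, with a median of 0.74. DNAJB9, PDIA4 and DNAJB11, with 1.98, 1.95 and 1.87, were among the 25, so these letters were not in the window of every gene far above control. All 13 of the genes past the threshold that had a promoter were among the 21 with CCAAT, the letters that 39.7% of all genes hold, while 10 of the 13 held CCACG and 9 held ACGT. DNAJC1 and PDIA3, also past the threshold, had no promoter in the table.

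The compounds alone, which address whether these drugs touch the folding genes in normal medium, gave few 2-fold differences. In CC against control 1 of 35 was higher (DNAJC1) and 1 lower (CALR), each 2.86%, beside 3.88% and 2.70% of all genes. In VST 1 was higher (DNAJB9) and 1 lower (SDF2L1), beside 2.46% and 2.48%. In Phen DNAJB9 and TMX4 were higher and SDF2L1 and FKBP11 lower, 5.71% in each direction beside 2.66% and 2.17%. These counts of 1 or 2 genes give shares near those of all genes. The medians were −0.11, 0.22 and 0.03.

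With a compound added in 2DG, the question was which of these genes lie lower than in 2DG alone. In 2DG+CC against 2DG, 13 of 35 (37.1%) were at least 2-fold lower, beside 25.4% of all genes, with a median of −0.46 against −0.23. In 2DG+VST, 15 (42.9%) were, beside 20.0% of all genes, with a median of −0.90 against −0.18. In 2DG+Phen, 13 (37.1%) were, beside 21.8%, with a median of −0.74 against −0.26. On the brightest probe sets none of the 35 was at least 2-fold higher in any of these, where 8.33%, 4.09% and 4.84% of all genes were. On dimmer probe sets DNAJB9 gave 1.06 and 1.54 with Phen, and DNAJC3 reached 1.90 with CC. Under poly-A scaling 26 genes were at least 2-fold lower with CC, beside 54.3% of all genes, 23 with VST, beside 35.4%, and 19 with Phen, beside 31.4%. The relatives outside the ER had medians of 0.17, 0.25 and 0.14, which turn to −0.70, −0.25 and −0.18 under poly-A scaling.

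**Figure D2:**
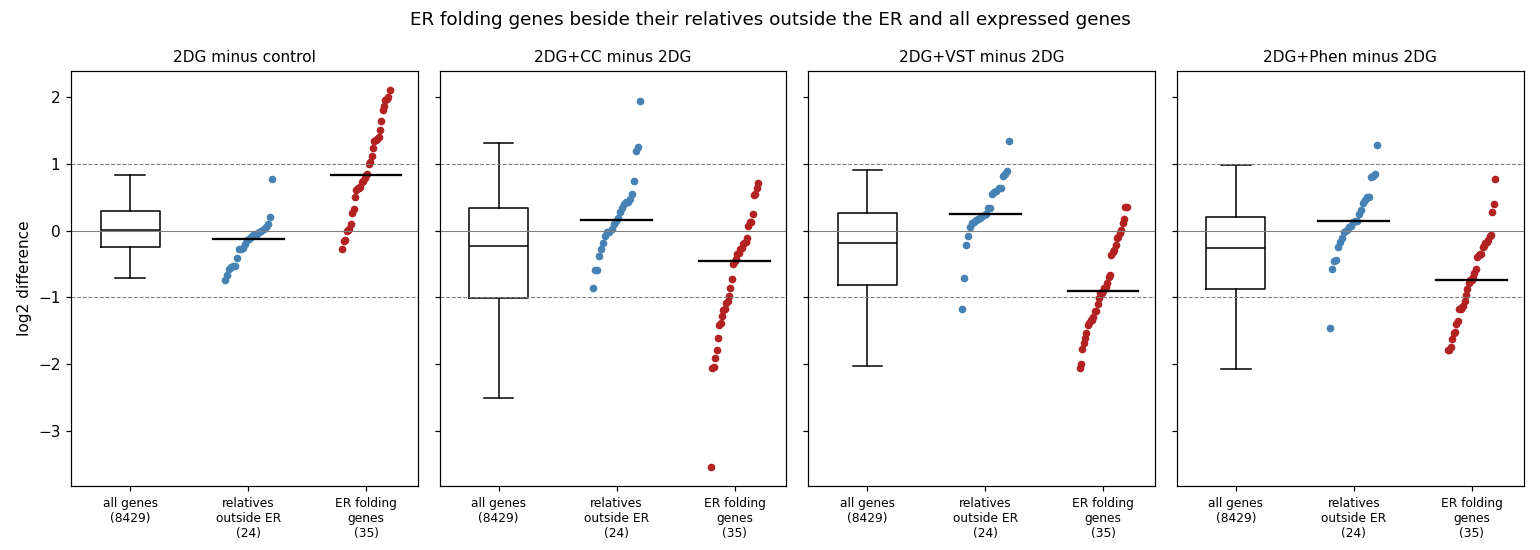
Log2 differences of the 35 ER folding genes and their 24 measured relatives outside the ER (points, 1 gene each, with the median as a line) beside all 8429 measured genes (box from the lower to the upper quartile with the median, whiskers from the 5th to the 95th percentile), 1 array per condition and dashed lines at 2-fold. The ER folding genes have medians of 0.83 in 2DG and of −0.46, −0.90 and −0.74 when CC, VST or Phen was added, and the relatives of −0.13, 0.17, 0.25 and 0.14, the last 3 turning to −0.70, −0.25 and −0.18 under poly-A scaling.

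The 15 genes past the threshold in 2DG and the remaining 20 can be read separately, with the caution that the comparisons with a compound in 2DG share the 2DG array with the comparison that picks the 15. Of the 15, 8 were at least 2-fold lower with CC (median −1.06), 11 with VST (median −1.34) and 7 with Phen (median −0.74). On the brightest probe sets HYOU1, PDIA4, P4HB, FKBP2 and CRELD2 were lower by that much with all 3 compounds. Of the 20 others, 5, 4 and 6 (25%, 20% and 30%) were at least 2-fold lower, and FKBP14, PPIC and SDF2 were so with all 3. These shares are near those of all genes (25.4%, 20.0% and 21.8%). The share of all genes that were so with all 3 was not counted, and the 3 comparisons share the 2DG array. Dimmer probe sets gave −0.87 and −0.79 for P4HB with CC and −0.92 for PPIC with VST.

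**Figure D3:**
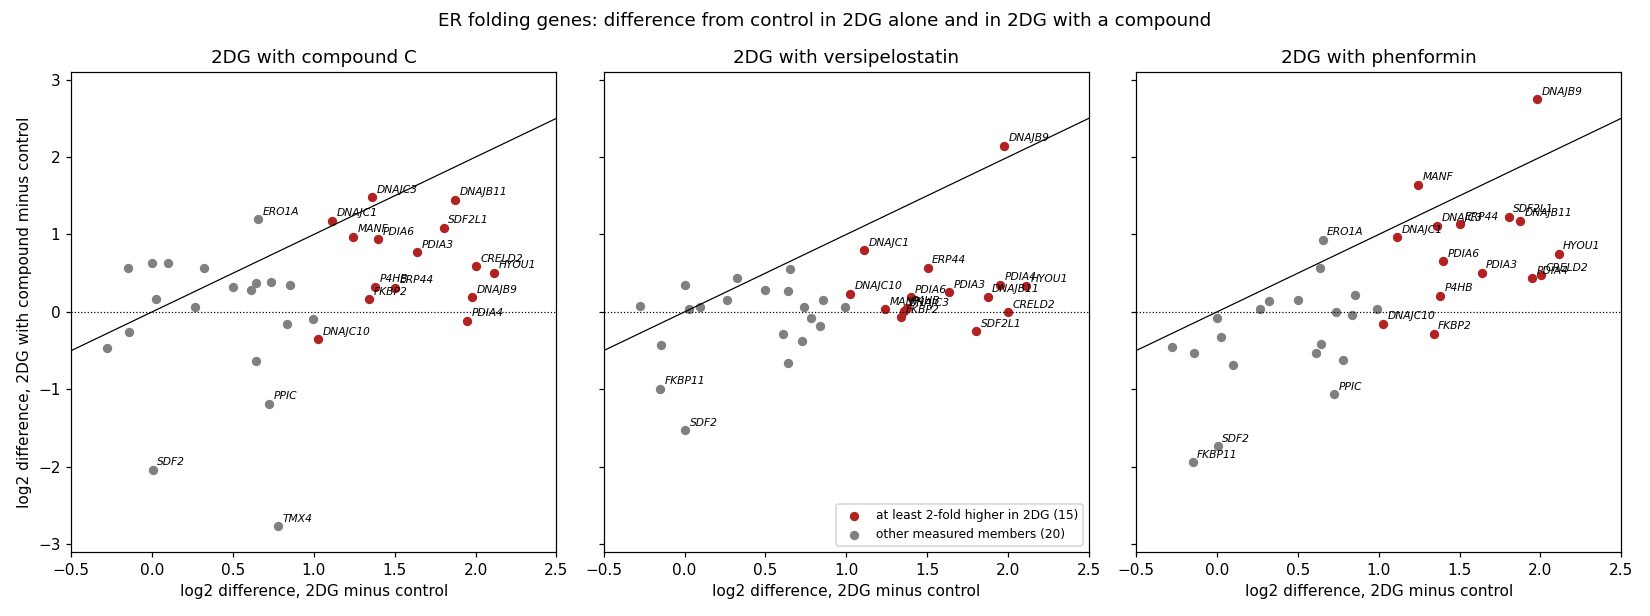
Log2 difference from control in 2DG alone (x axis) and in 2DG with compound C, versipelostatin or phenformin (y axis, 1 panel each) for the 35 measured ER folding genes, red for the 15 at least 2-fold higher in 2DG and grey for the other 20; the solid line is equality and the dotted line no difference from control. With versipelostatin most red points lie near 0 (median 0.19) with DNAJB9 at 2.15. With CC and Phen most are spread between the lines (medians 0.59 and 0.75). Outside the lines are DNAJC3, DNAJC1, DNAJC10 and PDIA4 with CC, and DNAJB9, MANF, DNAJC10 and FKBP2 with Phen.

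Read against control, the array that also helped to pick them, the 15 genes stood at a median of 0.59 in 2DG+CC, 0.19 in 2DG+VST and 0.75 in 2DG+Phen. These medians become −0.63, −0.65 and 0.08 under poly-A scaling, so that whether these genes stay above control with CC or VST depends on the scale. Within 1.2-fold of control or below it were 4 of the 15 with CC, 10 with VST and 3 with Phen, and under poly-A scaling 15, 14 and 8. The share of all genes at or below that level was not counted, so these counts have no background beside them. On the deposited scale, the panels of difference from control show most of the 15 near 0 with VST, DNAJB9 and DNAJC1 being furthest above.

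Over all 35 genes on their brightest probe sets, the widest ranges between the 3 arrays with a compound in 2DG were those of TMX4 (2.68), DNAJB9 (2.56) and FKBP11 (2.5). In 2DG+CC, 2DG+VST and 2DG+Phen the second TMX4 probe set read only 4.46, 5.40 and 5.18. A dimmer DNAJC3 probe set read 10.32, 7.67 and 8.67, so this ranking depends on the probe set. Among the 15, the lowest of the 3 arrays was 2DG+VST for 10 genes, 2DG+CC for 4 (DNAJB9, DNAJC10, PDIA4 and ERP44) and 2DG+Phen for FKBP2. Under poly-A scaling these counts were 8, 7 and 0. DNAJB11, DNAJC3, SDF2L1 and MANF were among the 10, and DNAJB9 ran from 6.64 in 2DG+CC to 9.20 in 2DG+Phen. Phen was used at 100 µM and the others at 10 µM, so these values stand side by side with no comparison of strength.

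The same arrays can be read as the effect of 2DG while a compound is present. In 2DG+CC against CC 8 genes (DNAJB11, DNAJC3, CALR, PDIA3, PDIA6, SDF2L1, CRELD2 and MANF, 22.9%) were at least 2-fold higher, beside 8.67% of all genes, and 4 (11.4%) at least 2-fold lower, beside 26.4%. In 2DG+VST against VST the counts were 1, CALR, and 2, SDF2 and FKBP14, beside 3.74% and 16.6%. In 2DG+Phen against Phen they were 6 (17.1%) and 4 (11.4%), beside 5.59% and 18.9%. The medians were 0.41, −0.05 and 0.06, against −0.24, −0.14 and −0.23 over all genes. Under poly-A scaling the medians of the 35 genes were −0.70, −0.85 and −0.32, and none of them was at least 2-fold higher in 2DG+CC against CC, where 1.66% of all genes were. With CC, the differences of DNAJC3, PDIA3, PDIA6 and CRELD2 turn from 1.11, 1.10, 1.02 and 1.04 to −0.0048, −0.0139, −0.10 and −0.0826 under poly-A scaling.

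Where a gene had several probe sets, they did not always give the same size. Among the 18 genes with at least 2 expressed probe sets, the median spread between probe sets was 0.34 for 2DG against control and 0.44 for 2DG+CC against 2DG. CANX, at 0.99 on its brightest probe set, gave 1.40, 1.46 and 2.06 on the others, and UGGT1 ran from 0.50 to 1.43. PPIB and UGGT2 also crossed the threshold on their second probe set, with 1.24 and 1.02. ERO1A had both signs in 2DG, from −0.59 to 0.65. DNAJC3 ran from 0.12 to 1.90 in 2DG+CC against 2DG, and P4HB from −1.06 to −0.79, so that its 2-fold difference with CC rests on the brightest probe set.

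**Figure D4:**
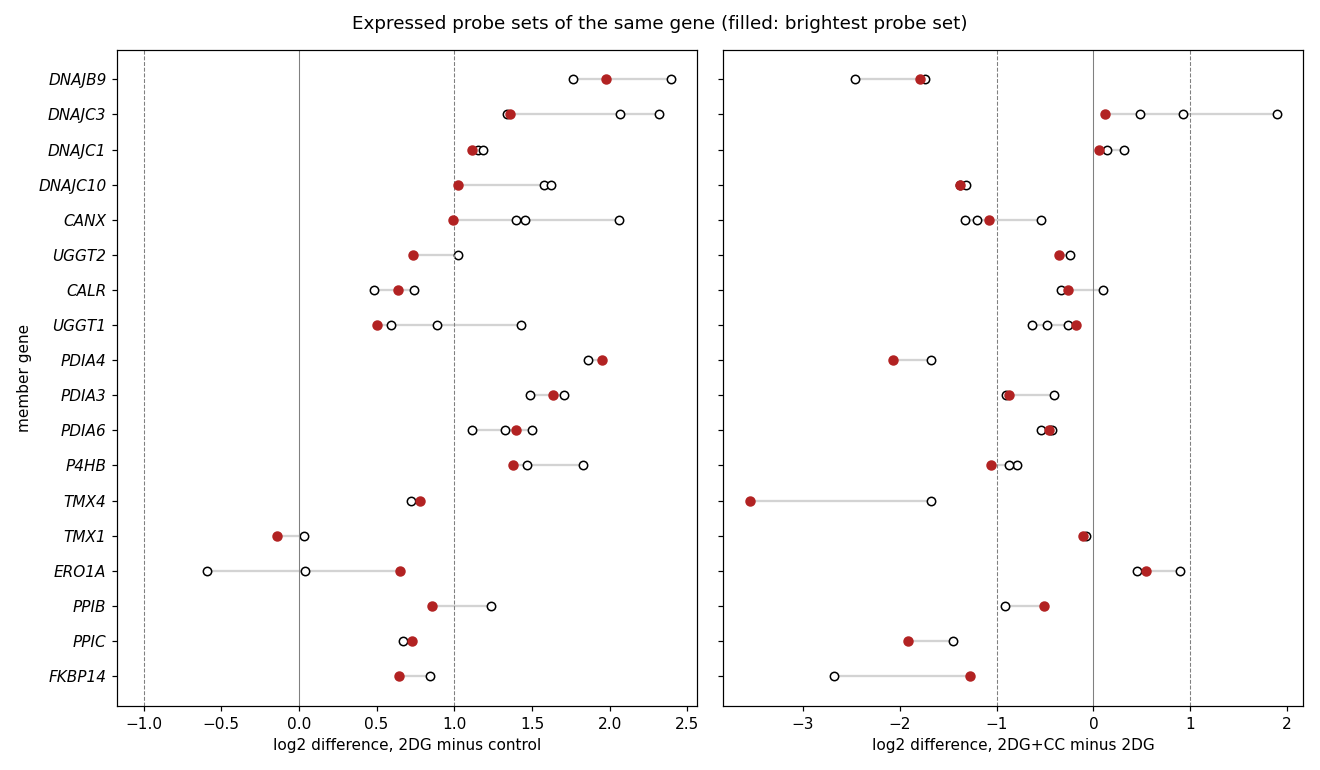
Log2 difference of each expressed probe set (points, filled for the brightest) for the 18 ER folding genes with several, in 2DG against control and in 2DG+CC against 2DG, with dashed lines at 2-fold. In 2DG the probe sets of CANX run from 0.99 to 2.06 and those of ERO1A from −0.59 to 0.65, and with CC those of TMX4 lie at −3.55 and −1.67.

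Other genes of the pathway were read from a list. Of the 4 measured partners and retrieval receptors, HSPA5 and HSP90B1, which encode GRP78 and GRP94, passed the threshold in 2DG, and KDELR1 and KDELR3 did not. KDELR3, which returns escaped ER proteins from the Golgi, was 0.86 higher in 2DG and −1.60, −1.10 and −1.91 from 2DG with CC, VST and Phen. The same 3 differences were 0.52, −0.56 and 0.52 for HSPA5, the first turning to −0.34 under poly-A scaling, −1.25, −1.48 and −0.24 for HSP90B1, and −0.09, 0.04 and 0.01 for KDELR1, the last pair also turning below 0 under that scaling. Of the 6 UPR sensors and transcription factors, ERN1, XBP1 and DDIT3 passed it (median of the 6, 0.89). EIF2AK3, the PERK kinase that DNAJC3 restrains, read 6.37, 6.38, 6.05, 6.50, 6.86, 8.43, 2.94 and 4.83, high in 2DG+CC and under the median of the array in 2DG+VST.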

How the data were processed

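Total RNA of HT1080 cells was read on human expression arrays, 1 per condition. By the submitters' notes, the authors deposited log2 intensities from RMA, which subtracts background, equalizes the arrays and combines the probes of a set. The RMA software was not given in the sources used here. Nothing was added before differences were taken. Control probe sets (62) were left out. A probe set was kept at a log2 value of 6 or more on at least 1 array, named through the platform annotation only where it carried 1 symbol, and the brightest stood for its gene. Differences of at least 2-fold were counted, with no test, since no condition has a replicate. All-array values are given for members 2-fold different in 2DG and for the 3 highest and 3 lowest in each other comparison. ERO1B, EIF2AK3 and members given by range fall outside that rule. Members and lists were chosen with earlier results of these data known. The alternatives were thresholds of 1.5 and 3, limits of 5, 7 and none, centring, quantile and poly-A scaling, unique probe sets and the median over probe sets. The counting code was tested on simulated data. Python 3.11.15, numpy 2.4.6 and pandas 2.3.3 were used. The number of arrays limits the precision. Protein sequences were not analysed here.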

Additional observations from a re-analysis of the deposited data

Results flagged for a closer look

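TMX4 was the 1 gene of the 35 for which a compound gave at least a 2-fold difference in one direction in normal medium and at least a 2-fold difference in the other in 2DG. With phenformin it was 1.27 above control in normal medium and −1.40 from 2DG in 2DG, so that the effect differed by −2.67 between the media. Its second probe set gave 0.90 and −0.96. The difference was not tested, since each condition has 1 array.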

How the results depend on the processing

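Directions of the 89 differences of at least 2-fold were kept in 691 of 695 values recomputed under the alternatives, and 137 of the 695 moved by over 1.2-fold. A limit alters a value only where it changes the brightest probe set. Values under limits of 5, 7 and none could therefore hardly turn, and the 691 includes them. The 4 that turned were those of 2DG+CC against CC under poly-A scaling: DNAJC3 at −0.0048, PDIA3 at −0.0139, PDIA6 at −0.10 and CRELD2 at −0.0826. With a 1.5-fold threshold, the counts were 25 higher for 2DG, 3 lower for CC, 5 for VST, 23 for 2DG+VST and 20 for 2DG+Phen against 2DG, and 13, 6 and 11 higher for 2DG with CC, VST and Phen against the compound alone. With a 3-fold threshold, 7 were higher in 2DG, beside 0.771%, and 0 lower for each compound alone, beside 0.403%, 0.380% and 0.249%. With CC, VST and Phen in 2DG, 6, 5 and 4 were lower than 2DG, beside 14.6%, 9.18% and 10.1%. For 2DG+CC and 2DG+VST against the compound 0 were higher, beside 3.26% and 1.19%. Under poly-A scaling 26 genes were lower in 2DG+CC and 23 in 2DG+VST against 2DG, beside 54.3% and 35.4% of all genes. Under it 0 were higher in 2DG+CC against CC and in 2DG+VST against VST, beside 1.66% and 0.91%. Medians under that scaling were 0.48 for 2DG, −0.25 for Phen, −1.33, −1.40 and −1.06 for CC, VST and Phen in 2DG, and −0.70, −0.85 and −0.32 for 2DG with CC, VST and Phen against the compound alone. Centred arrays gave 8 lower genes for 2DG+Phen against 2DG, beside 15.2% of all genes, with a median of −0.46. They gave a median of 0.68 for 2DG+CC against CC, and 3 higher for 2DG+VST against VST, beside 5.99%. The last count was 2 with a limit of 5, with no limit, with quantile scaling and with the median over probe sets. The shares of all genes there were 3.59%, 1.90%, 4.83% and 4.35%. CC against control had 0 lower with the median over probe sets, beside 2.53% of all genes. Phen had 1 with a limit of 7 and 0 without shared probe sets, beside 2.16% and 3.13%. The causes were not tested. The order of the compounds was recomputed under alternatives chosen after seeing the data: 2DG+VST was lowest for 10 of the 15 genes when centred, 8 under poly-A scaling and 9 with the median over probe sets. No paired analysis was possible because each condition has 1 array. With 1 array per condition, the spread between cultures is unknown, and log2 values near the background understate differences.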
